A study of Mus musculus castaneus and Mus musculus domesticus and Mus musculus with 11 samples.

Results

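Twist1, Twist2, Prrx1, Pdgfrb, Postn, Dcn, Lum, Fn1, Acta2 and Tagln are 10 genes commonly used to mark fibroblasts, mesenchyme and smooth-muscle-like cells. They were described here in RNA sequencing of mouse motor neuron cultures as a sign of non-neuronal cells. The genes were taken by symbol, with their mouse Ensembl identifiers, and all 10 were among the 27071 genes of the count matrix and among the 14839 that passed the filter on low counts.

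The cultures were stem cell-derived motor neurons of 3 mouse lines, each with 3 libraries of polyadenylated RNA. The first line, called 129, is 129S6/SvEv, a laboratory strain labelled Mus musculus domesticus. The second, called CAST, is CAST/EiJ, a wild-derived strain of Mus musculus castaneus. The third, labelled 129CAS and called the hybrid here, is a CASTx129 cross. No treatment, transgene, time point or animal age is given for any line. The labels do not say whether libraries of a line were separate cultures or whether a line is 1 clone, so p-values cover only the spread between these samples, which may be technical.

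Mesenchymal cells fill and support tissues and lay down extracellular matrix, and transcription factors of the Twist and Prrx families are active in them during development. When they spread on a culture surface, they commonly build contractile filaments of smooth muscle actin and a network of fibronectin and collagen. Spinal motor neurons arise from neuroepithelium and are not known as a main source of these matrix proteins. Stem cell differentiation is rarely pure, and connective tissue cells are a familiar companion of neurons in such dishes. In bulk RNA, fewer cells of a type and less RNA per cell cannot be told apart.

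Total counts ran from 7763077 to 18167577 per library. All 12 pan-neuronal genes and all 10 motor neuron genes checked passed the filter. Tubb3, a neuronal tubulin, lay between 330 and 3228 CPM (gene counts on the usual scale relative to the library total, which was adjusted by TMM), and Chat, the enzyme that makes acetylcholine, between 5.52 and 28.4 CPM. The motor neuron factors Isl1 and Mnx1 lay between 13.1 and 62.7 CPM and between 0.495 and 4.88 CPM. CAST 1 and hybrid 2 stood apart from the other libraries in that short transcripts were relatively abundant there: the slope of relative log2 expression per doubling of exon length over 13500 genes was −0.70 and −0.65. Hybrid 3 had a slope of −0.19, and the remaining 6 libraries had slopes of 0.16 to 0.34.

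In 129 and in the hybrid, the 10 genes were high in some libraries and low in others. Their summed level was 19829, 22444 and 5103 CPM in 129 1 to 129 3, and 28164, 14552 and 2024 CPM in hybrid 1 to hybrid 3. It was 6396, 5399 and 8920 CPM in CAST 1 to CAST 3. Libraries of 129 and of the hybrid therefore spanned the CAST values, and the highest and lowest of all 9 libraries both came from the hybrid. These sums are carried by Fn1, Acta2 and Tagln, with means of 7095, 2840 and 1685 CPM over the 9 libraries. In CAST 1, Acta2 and Tagln stood at 4026 and 2105 of the 6396 CPM. Library 129 3 was the lowest of its line in 10 of 10 genes, and hybrid 3 in 9 of 10. In CAST, by contrast, the genes split: CAST 1 was the lowest of its line in 6 genes and the highest in 4.

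**Figure D1:**
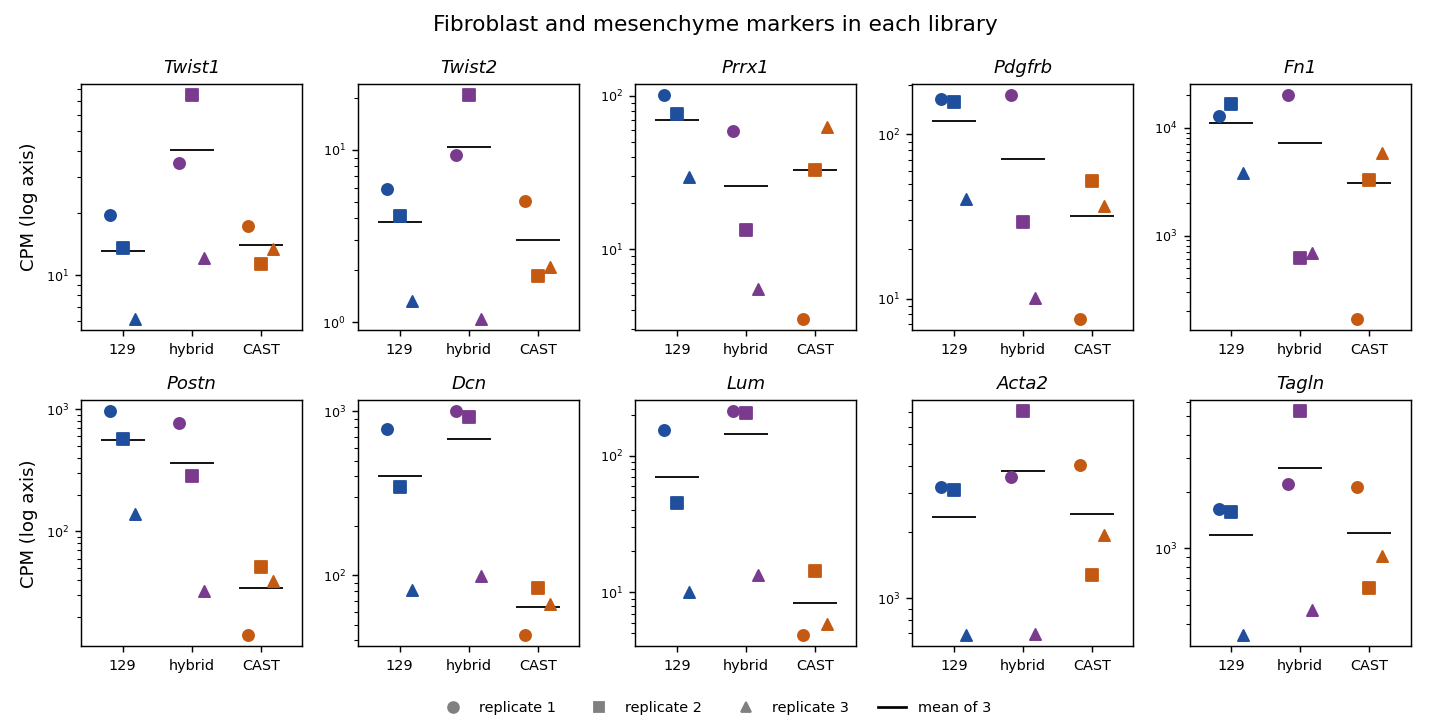
Level of each of the 10 genes (CPM, log axis) in the 9 libraries, grouped by line, with marker shapes for replicates and a black bar for the mean of 3. The triangle of 129, library 129 3, is the lowest of its line in all 10 panels, and CAST 1 is the lowest of the 9 libraries in 6 panels.

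The spread inside a line was wide for these genes. The median over the 10 genes of the SD between the 3 libraries of a line reached 1.21 on the log2 CPM scale for 129, 1.98 for the hybrid and 0.87 for CAST. Over all 14839 tested genes the median SD was 0.30, 0.66 and 0.69 in that order of lines. The markers therefore had a larger median SD than tested genes at large in every line. In 129 the marker SDs ran from 0.84 for Twist1 to 1.97 for Lum.

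Compared per kilobase of exon, the contractile genes and fibronectin were the most abundant markers. Averaged over the 9 libraries, Acta2 stood at 1293 CPM per kilobase, Tagln at 847 and Fn1 at 607. Dcn followed at 65.2, Postn at 36.5, Lum at 30.3, Twist1 at 13.9, Pdgfrb at 13.6, Prrx1 at 3.86 and Twist2 at 1.81 CPM per kilobase. In the hybrid, several neighbours in this order were closer than their spread. Acta2 stood there at 1716 ± 1452 and Tagln at 1341 ± 1236 CPM per kilobase, Postn at 41.6 ± 42.9 and Lum at 58.8 ± 46.2, and Twist1 at 24.9 ± 19.5 and Pdgfrb at 13.0 ± 16.4 (SD, n = 3). The order also changed between lines: in CAST, Twist1 stood at 8.60 ± 1.88 CPM per kilobase (SD, n = 3), above Postn at 3.98 ± 2.15 and Lum at 3.42 ± 2.14.

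Across the 3 lines, no marker passed the threshold in any comparison. The edgeR quasi-likelihood test, with Benjamini-Hochberg adjustment over all tested genes and a threshold of 0.05, called 0 of 10 in CAST against 129, 0 of 10 in the hybrid against 129 and 0 of 10 in the hybrid against CAST. Over all tested genes the same test called 0.917%, 7.02% and 6% in these comparisons. At an unadjusted p under 0.05 it held 3, 1 and 4 markers, where all tested genes gave 14.6%, 22.2% and 15.8%. DESeq2 called 3, 0 and 3 markers, against 6.34%, 14.2% and 10.8% of genes, and limma-voom called 0 in each, against 1.77%, 7.67% and 6.73%. A joint test of any difference among the lines called 0 of 10 with edgeR, where it called 8.03% of all genes. With no adjustment 4 markers were under 0.05, beside 21.1% of genes. DESeq2 called 3 in its joint test, beside 16.9%, and limma-voom 0, beside 8.58%. The libraries of 2 lines did not overlap for 1 marker in CAST against 129, for 0 in the hybrid against 129 and for 1 in the hybrid against CAST, beside 28.6%, 37.5% and 19.2% of tested genes.

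The size and direction of the estimates differed between comparisons. In CAST against 129, 3 of 10 markers had a positive log2 fold change, with a median of −1.45. Over all tested genes 52.4% were positive and the median was 0.06. In the hybrid against 129, 6 of 10 were positive with a median of 0.71, beside 50.7% and 0.02 over all genes. In the hybrid against CAST, 9 of 10 were positive with a median of 1.37, beside 45.4% and −0.08. The comparisons share their libraries pairwise, so these values are not independent of each other. Without both CAST 1 and hybrid 2, the medians were −1.16, 0.04 and 1.17 and the positive counts 0, 5 and 9 of 10.

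**Figure D2:**
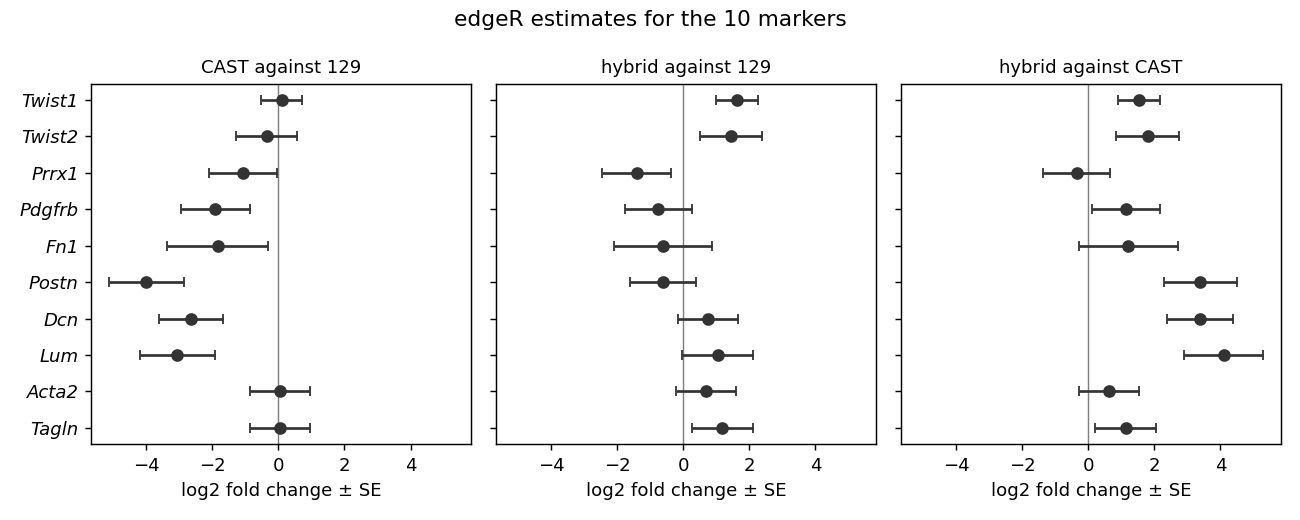
Log2 fold change with its standard error (SE) for each of the 10 genes in the 3 comparisons, from edgeR with all 9 libraries in 1 fit. Postn, Dcn and Lum lie farthest from 0 in CAST against 129 and in the hybrid against CAST, and Acta2 and Tagln lie close to 0 in CAST against 129.

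The transcription factors are taken first. Twist1 (ENSMUSG00000035799, GRCm38 chromosome 12, 33957671 to 33959829) encodes a basic helix-loop-helix factor of mesoderm and cranial mesenchyme. It stood at 19.5, 13.6 and 6.15 CPM in 129 1 to 129 3, at 34.9, 74.7 and 12.1 CPM in hybrid 1 to hybrid 3, and at 17.3, 11.3 and 13.3 CPM in CAST 1 to CAST 3. Hybrid 1 and hybrid 2 were above all parental libraries, while hybrid 3 lay among them. Twist1 had a log2 fold change of 1.63 ± 0.64 (SE) in the hybrid against 129, 1.53 ± 0.64 in the hybrid against CAST and 0.10 ± 0.63 in CAST against 129. The edgeR adjusted p-values were 0.183, 0.276 and 0.945. Without hybrid 2 the log2 values against 129 and against CAST were 0.85 and 0.80.

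Twist2 (ENSMUSG00000007805, chromosome 1, 91801461 to 91848028), the close relative of Twist1 found in dermal and limb mesenchyme, was the least abundant marker. It had 107, 68 and 23 counts in 129 1 to 129 3, 132, 149 and 15 in hybrid 1 to hybrid 3, and 49, 33 and 29 in CAST 1 to CAST 3. Hybrid 2 was the highest library at 20.8 CPM and hybrid 3 the lowest at 1.05 CPM, so the hybrid alone covered the range of both other lines. The log2 fold changes were −0.36 ± 0.93 in CAST against 129, 1.44 ± 0.93 in the hybrid against 129 and 1.80 ± 0.95 in the hybrid against CAST (SE, edgeR adjusted p = 0.848, 0.365 and 0.432). Without hybrid 2 the last 2 values fell to 0.45 and 0.86, and without 129 1 the first was 0.11. Of its exonic bases, 46.5% overlap the predicted gene Gm29100 on the other strand, and the strand setting of the counting is not given.

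Prrx1 (ENSMUSG00000026586, chromosome 1, 163245119 to 163313710), a homeobox factor of limb and craniofacial mesenchyme, followed another order. It stood at 102, 76.3 and 29.7 CPM in 129 1 to 129 3, at 58.8, 13.3 and 5.52 CPM in hybrid 1 to hybrid 3, and at 3.51, 33.0 and 62.7 CPM in CAST 1 to CAST 3. All 3 lines overlapped, and CAST 1 was the lowest library. The log2 fold changes were −1.06 ± 1.03 in CAST against 129, −1.42 ± 1.04 in the hybrid against 129 and −0.35 ± 1.02 in the hybrid against CAST (SE, edgeR adjusted p = 0.604, 0.414 and 0.930). Prrx1 was the single marker with a negative value in the hybrid against CAST, and that value became positive without hybrid 3 (0.12) or without CAST 3 (0.49). Without hybrid 1 the values against 129 and CAST were −2.96 and −1.87, and without CAST 1 the value in CAST against 129 was −0.56.

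Beside these 3 factors, 27 further transcription factors of mesenchyme were examined, of which 24 were tested. EdgeR called 0 in each comparison (5, 0 and 4 under an unadjusted p of 0.05; 1, 0 and 1 by DESeq2, in the order CAST against 129, hybrid against 129, hybrid against CAST). The median log2 fold changes were −0.29, 0.24 and 0.20, and −0.25, −0.13 and 0.15 without both CAST 1 and hybrid 2. Zeb2 and Zeb1, repressors active in epithelial-to-mesenchymal transition and also read in the nervous system, had the highest levels. Zeb2 stood at 152 ± 7.32 CPM in 129, 114 ± 79.3 CPM in hybrid and 98.9 ± 79.4 CPM in CAST libraries, and Zeb1 at 121 ± 17.9, 63.4 ± 53.5 and 74.1 ± 46.5 (SD, n = 3). Their levels in 129 varied little between libraries, unlike those of Twist1 and Prrx1. This did not hold in CAST, where Zeb2 stood at 13.3, 113 and 170 CPM and Zeb1 at 23.6, 83.4 and 115 CPM in CAST 1 to CAST 3. Twist1 stood there at 17.3, 11.3 and 13.3 CPM.

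Twist proteins pair with E proteins and are held back by Id proteins. Of 8 tested genes of this kind, edgeR called 0 in each comparison (1, 3 and 0 under an unadjusted p of 0.05; 0, 3 and 0 by DESeq2). The E protein gene Tcf4 stood at 197 ± 91.8 CPM in 129, 99.3 ± 84.4 CPM in hybrid and 115 ± 71.4 CPM in CAST libraries. The inhibitor gene Id3 stood at 87.6 ± 36.7, 456 ± 408 and 177 ± 113 CPM (SD, n = 3), with 163, 922 and 284 CPM in hybrid 1 to hybrid 3. CAST 1 to CAST 3 had 307, 112 and 111 CPM of Id3. In CAST against 129 its log2 fold change was 1.01 ± 0.71 (SE, edgeR adjusted p = 0.499), and 0.32 ± 0.69 without CAST 1. The log2 fold change of Id3 in the hybrid against 129 was 2.38 ± 0.74 (SE, edgeR adjusted p = 0.0986; DESeq2 adjusted p = 0.00930). Without hybrid 2 it was 1.35 ± 0.59 (edgeR adjusted p = 0.323), and without hybrid 1 it was 2.71 ± 0.68 (edgeR adjusted p = 0.0468), past the threshold.

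Pdgfrb (ENSMUSG00000024620) encodes the receptor for platelet-derived growth factor that marks pericytes and fibroblasts. It stood at 163, 157 and 40.1 CPM in 129 1 to 129 3, at 174, 29.1 and 10.1 CPM in hybrid 1 to hybrid 3, and at 7.54, 51.7 and 36.7 CPM in CAST 1 to CAST 3. Libraries 129 1, 129 2 and hybrid 1 were high, and the other 6 lay lower and overlapped between lines. The log2 fold changes were −1.91 ± 1.05 in CAST against 129, −0.76 ± 1.02 in the hybrid against 129 and 1.15 ± 1.03 in the hybrid against CAST (SE, edgeR adjusted p = 0.414, 0.650 and 0.719). Without hybrid 1 the last 2 values were −2.70 and −0.76.

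EdgeR called 0 of 5 genes for the ligands and the sister receptor of this pathway in each comparison (3, 0 and 1 under an unadjusted p of 0.05; 2, 0 and 0 by DESeq2). The ligand Pdgfa, which neurons also make, stood at 64.7 ± 11.4 CPM in 129, 54.0 ± 4.26 CPM in hybrid and 78.4 ± 17.0 CPM in CAST libraries. The ligand Pdgfc stood at 73.6 ± 30.3, 27.4 ± 24.4 and 50.1 ± 27.9 CPM (SD, n = 3). Spread between libraries was narrower for Pdgfa than for the receptor Pdgfrb in each line.

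Fn1 (ENSMUSG00000026193, chromosome 1, 71585520 to 71653200) encodes fibronectin, the adhesive glycoprotein on which mesenchymal cells spread and migrate. It had the widest range of the markers, from 169 CPM in CAST 1 to 20146 CPM in hybrid 1, a ratio of 119. It stood at 12815, 16559 and 3767 CPM in 129 1 to 129 3, at 624 and 690 CPM in hybrid 2 and hybrid 3, and at 3252 and 5837 CPM in CAST 2 and CAST 3. The hybrid held both the highest library and 2 of the 3 lowest. The log2 fold changes were −1.84 ± 1.52 in CAST against 129, −0.63 ± 1.48 in the hybrid against 129 and 1.21 ± 1.50 in the hybrid against CAST (SE, edgeR adjusted p = 0.556, 0.804 and 0.818). The last 2 rested on hybrid 1, without which they were −4.12 and −2.25. Without hybrid 2 the value in the hybrid against 129 was −0.08.

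Receptors and syndecan that bind fibronectin had negative values in 8 of 8 tested genes in CAST against 129 and in 8 of 8 in the hybrid against 129, with medians of −1.28 and −1.07. In the hybrid against CAST, 5 of 8 were positive with a median of 0.19. Their mean log2 CPM was 3.10 in CAST 1, beside 5.63 and 6.36 in CAST 2 and CAST 3, and 7.12, 4.63 and 4.47 in hybrid 1 to hybrid 3. Without both CAST 1 and hybrid 2, the medians were −0.93, −0.72 and 0.19, with 8 of 8, 7 of 8 and 3 of 8 negative. Without hybrid 1, the medians of the hybrid against 129 and against CAST were −2.67 and −0.97. EdgeR called 0 of them in each comparison (2, 1 and 1 under an unadjusted p of 0.05; 1, 0 and 1 by DESeq2), and 1 in the hybrid against 129 without CAST 1. Itgb1, the common beta subunit, stood at 2036 ± 832 CPM in 129, 899 ± 1042 CPM in hybrid and 813 ± 560 CPM in CAST libraries. Itgav, an alpha subunit, stood at 570 ± 284, 240 ± 323 and 202 ± 209 CPM (SD, n = 3).

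Postn (ENSMUSG00000027750, chromosome 3, 54361109 to 54391037) encodes periostin, a matricellular protein of periosteum, valves and scar tissue. It stood at 959, 569 and 140 CPM in 129 1 to 129 3, at 768, 285 and 32.6 CPM in hybrid 1 to hybrid 3, and at 14.1, 50.7 and 39.1 CPM in CAST 1 to CAST 3. Every library of 129 was above every library of CAST, while hybrid 3 lay among the CAST libraries. Postn was the single marker whose libraries did not overlap between CAST and 129, where 28.6% of all tested genes do not overlap. The log2 fold change in CAST against 129 was −4.00 ± 1.14 (SE), the largest of the 10, with an edgeR adjusted p of 0.151 and a DESeq2 adjusted p of 9.91e-04. Over the 16 alternative settings its adjusted p ran from 9.91e-04 to 0.399. In the hybrid against CAST it was 3.38 ± 1.10 (SE, edgeR adjusted p = 0.137), and 2.14 without hybrid 1. Against 129, Postn in the hybrid had −0.62 ± 1.01 (SE, edgeR adjusted p = 0.710), −1.91 without hybrid 1 and 0.02 without 129 1.

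Of 11 other matricellular genes tested, edgeR called 0 in each comparison (1, 0 and 1 under an unadjusted p of 0.05; 1, 0 and 1 by DESeq2), and the medians were −1.23, −0.85 and 0.22. Without both CAST 1 and hybrid 2 they were −0.87, −0.69 and 0.23, and without hybrid 1 the last 2 were −2.21 and −0.76, with 1 gene called in the hybrid against 129. Thbs1, thrombospondin, stood at 6197 ± 3789 CPM in 129, 2641 ± 4177 CPM in hybrid and 1561 ± 1544 CPM in CAST libraries. Tnc, tenascin C, stood at 2188 ± 1242, 1215 ± 1876 and 800 ± 867 CPM (SD, n = 3). In the hybrid the SD exceeded the mean for both genes.

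Dcn (ENSMUSG00000019929, chromosome 10, 97479609 to 97518143) and Lum (ENSMUSG00000036446, chromosome 10, 97565128 to 97572703) encode decorin and lumican, small leucine-rich proteoglycans that bind collagen fibrils. The genes are neighbours on the plus strand, 46984 bases apart, with no annotated gene lying wholly between them. Dcn stood at 784, 347 and 81.6 CPM in 129 1 to 129 3, at 998, 922 and 98.2 CPM in hybrid 1 to hybrid 3, and at 43.0, 83.5 and 66.6 CPM in CAST 1 to CAST 3. Every hybrid library was above every CAST library for Dcn, where 19.2% of all tested genes do not overlap. Lum stood at 155, 45 and 10.1 CPM in 129, at 211, 207 and 13.4 CPM in the hybrid, and at 4.85, 14.4 and 5.88 CPM in CAST, in the same order of replicates. Its lines overlapped, since hybrid 3 was below CAST 2.

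In CAST against 129, Dcn had a log2 fold change of −2.65 ± 0.96 and Lum of −3.06 ± 1.15 (SE, edgeR adjusted p = 0.253 and 0.265; DESeq2 adjusted p = 0.0353 and 0.0356). In the hybrid against CAST, Dcn had 3.38 ± 0.99 and Lum 4.10 ± 1.20 (SE, edgeR adjusted p = 0.0919 for both; DESeq2 adjusted p = 0.00131 and 6.4e-04). In the hybrid against 129, they had 0.73 ± 0.91 and 1.04 ± 1.07 (SE, adjusted p = 0.618 and 0.550). Without 129 1, the values of Dcn and Lum were −1.74 and −1.72 in CAST against 129 and 1.64 and 2.37 in the hybrid against 129. Without hybrid 1, Dcn had 0.23 in the hybrid against 129, and without 129 3, Lum had 0.51. Postn, Dcn and Lum passed the edgeR threshold in the hybrid against CAST once hybrid 3 was left out, with log2 values of 3.92, 3.89 and 4.63 and adjusted p-values of 0.0460, 0.0363 and 0.0375. These 3 genes were also the ones that DESeq2 called with all libraries. Hybrid 3 was their lowest hybrid library, at 32.6, 98.2 and 13.4 CPM, so leaving it out had to raise their hybrid mean. The calls are not independent of each other. Over the 16 alternatives, the adjusted p in the hybrid against CAST ran from 0.00438 to 0.491 for Postn, 0.00131 to 0.269 for Dcn and 6.4e-04 to 0.276 for Lum.

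Dcn and Lum kept a similar ratio while their levels moved. Per kilobase of exon, Dcn over Lum was between 2.12 and 3.40 in 129, between 1.87 and 3.07 in the hybrid and between 2.44 and 4.75 in CAST. Their levels varied 23.2-fold and 43.6-fold over the same 9 libraries. The next genes of the same cluster, Kera and Epyc, which encode keratocan of the cornea and epiphycan of cartilage, had 0 to 2 and 0 to 10 counts per library. Of these 4 neighbours, only Dcn and Lum had more than 10 counts in any library.

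Among the other small leucine-rich proteoglycan genes, 6 of 8 were tested. They were negative in 6 of 6 in CAST against 129 (median −1.79) and positive in 5 of 6 in the hybrid against CAST (median 2.18). Without both CAST 1 and hybrid 2 these counts were the same and the medians −1.50 and 1.78. EdgeR called 0 in each comparison (3, 0 and 3 under an unadjusted p of 0.05; 1, 0 and 2 by DESeq2). Bgn, biglycan, stood at 865 ± 533 CPM in 129, 1149 ± 798 CPM in hybrid and 199 ± 67.6 CPM in CAST libraries. Prelp stood at 126 ± 141, 156 ± 85.0 and 54.7 ± 47.9 CPM (SD, n = 3). The log2 fold change of Bgn was 2.53 ± 0.83 in the hybrid against CAST (SE, edgeR adjusted p = 0.137, DESeq2 adjusted p = 0.00794).

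The summed level of fibrillar collagen and microfibril genes ran from 7681 to 31173 CPM in 129, from 3270 to 34428 CPM in the hybrid and from 2010 to 10462 CPM in CAST. In CAST against 129, 2 of 23 tested genes were positive (median −1.58), and in the hybrid against CAST 23 of 23 were positive (median 1.12). Their mean log2 CPM was 8.87, 6.97 and 5.15 in hybrid 1 to hybrid 3 and 4.61, 6.60 and 6.77 in CAST 1 to CAST 3. Without hybrid 1, 11 of 23 were positive in the hybrid against CAST (median −0.09). Without CAST 1 it was 21 of 23 (median 0.75), and without both CAST 1 and hybrid 2 it was 23 of 23. EdgeR called 0 in each comparison (3, 2 and 6 under an unadjusted p of 0.05; 1, 2 and 6 by DESeq2), and 1 in the hybrid against 129 without hybrid 1. Col1a1, a chain of type I collagen, stood at 4281 ± 2672 CPM in 129, 3339 ± 4820 CPM in hybrid and 1635 ± 1290 CPM in CAST libraries. Col1a1 stood at 8897, 808 and 311 CPM in hybrid 1 to hybrid 3 and at 195, 2024 and 2686 CPM in CAST 1 to CAST 3, so the hybrid mean rested on hybrid 1. Sparc, a collagen-binding protein, stood at 3614 ± 1789, 3355 ± 1632 and 1697 ± 567 CPM (SD, n = 3).

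Acta2 (ENSMUSG00000035783, chromosome 19, 34241090 to 34255590) encodes smooth muscle alpha actin, the filament protein of smooth muscle and of contractile fibroblasts. It stood at 3206, 3107 and 681 CPM in 129 1 to 129 3, at 3563, 7055 and 688 CPM in hybrid 1 to hybrid 3, and at 4026, 1281 and 1950 CPM in CAST 1 to CAST 3. The lines overlapped fully: the lowest libraries of 129 and the hybrid were nearly equal, and CAST lay inside the range of the hybrid. The log2 fold changes were 0.05 ± 0.91 in CAST against 129, 0.69 ± 0.91 in the hybrid against 129 and 0.64 ± 0.91 in the hybrid against CAST (SE, edgeR adjusted p = 0.984, 0.640 and 0.846). Without hybrid 2 the last 2 were −0.13 and −0.13, and without CAST 1 the first was −0.56.

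Tagln (ENSMUSG00000032085, chromosome 9, 45929619 to 45936058) encodes transgelin, an actin-binding protein of the same cells. It stood at 1619, 1566 and 347 CPM in 129 1 to 129 3, at 2201, 5322 and 473 CPM in hybrid 1 to hybrid 3, and at 2105, 620 and 907 CPM in CAST 1 to CAST 3. Its order of libraries was close to that of Acta2. The log2 fold changes were 0.04 ± 0.91 in CAST against 129, 1.18 ± 0.93 in the hybrid against 129 and 1.14 ± 0.93 in the hybrid against CAST (SE, edgeR adjusted p = 0.990, 0.444 and 0.680). Without CAST 1 the value in CAST against 129 was −0.66, and without hybrid 2 the values against 129 and CAST were 0.19 and 0.20. Of its exonic bases, 67.9% overlap other genes on the opposite strand, among them Pcsk7, which lay between 25.8 and 42.9 CPM and thus far below Tagln.

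Smooth muscle genes and targets of serum response factor, the actin-regulated factor that drives Acta2 and Tagln, were all tested (18 of 18). Their summed level ran from 3674 to 13067 CPM for 129, from 2385 to 15442 in the hybrid and from 4696 to 7059 in CAST. EdgeR called 0 in each comparison (2, 0 and 1 under an unadjusted p of 0.05; 1, 0 and 1 by DESeq2), and the medians were −0.46, −0.19 and 0.74. Without both CAST 1 and hybrid 2 they were −0.72, −0.25 and 0.56, and without hybrid 1 the last 2 were −0.61 and 0.10. Tpm1, a tropomyosin, stood at 1627 ± 849 CPM in 129, 2349 ± 1597 CPM in hybrid and 1306 ± 272 CPM in CAST libraries. Flna, an actin crosslinker, stood at 2310 ± 1184, 2060 ± 2144 and 1283 ± 946 CPM (SD, n = 3).

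Within a library, the ratio of Acta2 to Tagln varied little inside each parental line and was lower in the hybrid. Per kilobase of exon it was 1.79, 1.80 and 1.78 in 129 1 to 129 3 and 1.73, 1.87 and 1.95 in CAST 1 to CAST 3. In hybrid 1 to hybrid 3 it was 1.47, 1.20 and 1.32, below all 6 parental libraries. This ratio was singled out among 7 after its values were seen, so it is given as a description with no test. The ratio of Fn1 to Acta2 behaved otherwise: it was between 0.751 and 1.04 in 129, 1.06 in hybrid 1 and 0.188 in hybrid 3, but 0.0166 in hybrid 2 and 0.00791 in CAST 1. It was 0.477 and 0.563 in CAST 2 and CAST 3.

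**Figure D3:**
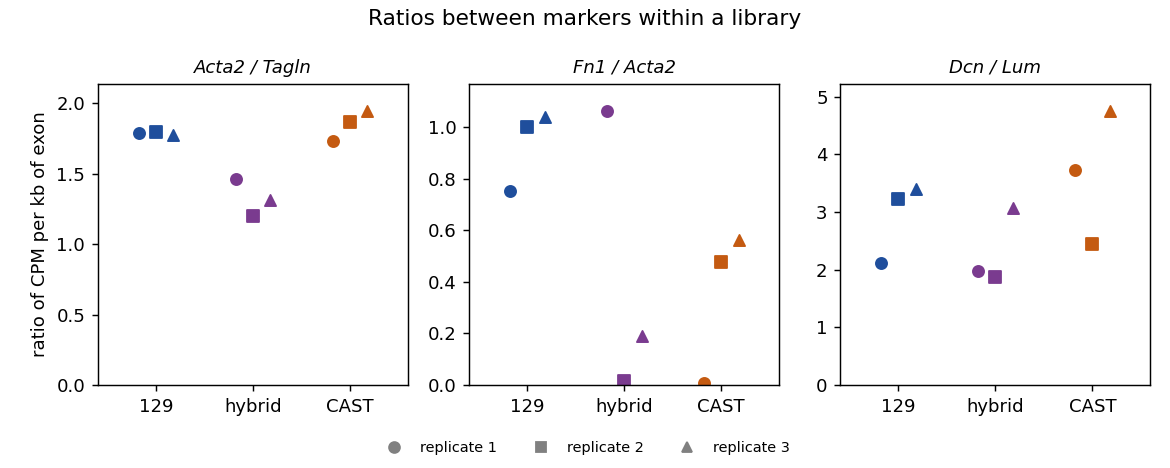
Ratios of CPM per kilobase of exon between pairs of markers within each library, by line, with marker shapes for replicates. Acta2 over Tagln lies between 1.73 and 1.95 in the parental libraries and at 1.20 to 1.47 in the hybrid, and Fn1 over Acta2 is near 0 in CAST 1 and hybrid 2.

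Part of the spread among the markers followed transcript length. In CAST 1, the 4 markers above the mean of CAST 2 and CAST 3 were Twist1 (1.41-fold), Acta2 (2.49-fold), Twist2 (2.57-fold) and Tagln (2.76-fold), whose summed exons are 1628 to 3174 bases long. Fn1, with 11685 bases of exon, was 26.8-fold lower in CAST 1 than that mean, and Prrx1, with 11066, was 13.6-fold lower. Lum, with 2448 bases of exon, was the only one of the shorter markers below that mean, with a 2.09-fold lower level. Genes tested at 5 CPM or more had a median ratio of 2.75 where exons measured 1500 to 2000 bases and of 0.291 above 9000 bases. Fn1, Prrx1 and Twist1 thus lay below the median of genes of their length, and Tagln, with 1988 bases, close to it. Lum (ratio 0.479) was also below its median of 1.98 for 2000 to 3000 bases. So were Pdgfrb (0.171) and Dcn (0.573), beside 0.829 for 4500 to 6500 bases, and Postn (0.315), beside 0.522 for 6500 to 9000. Acta2 and Twist2 lay above the medians for their length, which were 1.98 and 1.28.

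Hybrid 2 was likewise set against the mean of hybrid 1 and hybrid 3. Twist1, Acta2, Tagln and Twist2 were 3.18-fold, 3.32-fold, 3.98-fold and 4.01-fold higher there, and Lum and Dcn 1.84-fold and 1.68-fold higher. Fn1 was 16.7-fold lower, Pdgfrb 3.17-fold, Prrx1 2.42-fold and Postn 1.40-fold lower. For these genes the mean was carried by hybrid 1, at 20146, 174, 58.8 and 768 CPM. Hybrid 2 stood at 624, 29.1, 13.3 and 285 CPM and hybrid 3 at 690, 10.1, 5.52 and 32.6 CPM. Set against hybrid 3 alone, hybrid 2 was thus lower for Fn1 only. Against the mean of hybrid 1 and hybrid 3, the median ratio of genes of 1500 to 2000 bases was 1.96. That of genes above 9000 bases was 0.426. Medians were 1.44 for 2000 to 3000 bases, 0.988 for 3000 to 4500, 0.714 for 4500 to 6500 and 0.553 for 6500 to 9000. Twist1, Tagln, Acta2, Lum, Twist2, Dcn and Postn (ratio 0.713) lay above the median for their length. Pdgfrb (0.316), Prrx1 (0.413) and Fn1 (0.0599) lay below it. With an offset for the trend on exon length, 0 markers passed the edgeR threshold in any comparison, and the lowest adjusted p was 0.0984 in CAST against 129, 0.382 in the hybrid against 129 and 0.0622 in the hybrid against CAST.

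**Figure D4:**
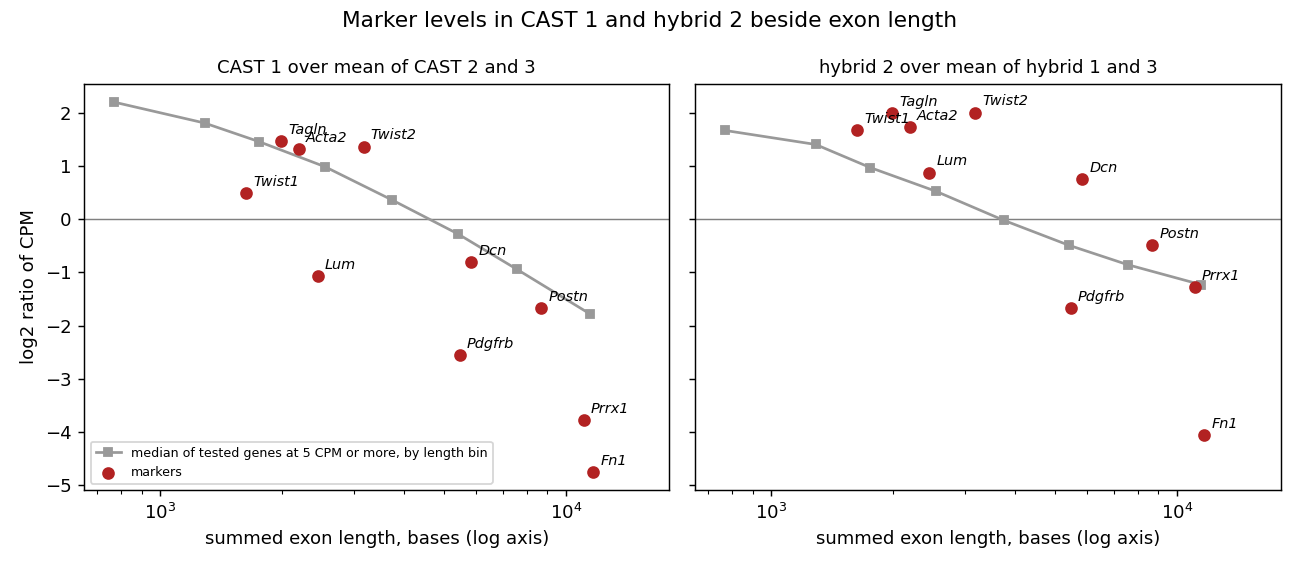
Log2 ratio of CPM in CAST 1 (left) and hybrid 2 (right) over the mean of the other libraries of the line, against summed exon length on a log axis; red points are the 10 markers and grey squares the median of tested genes at 5 CPM or more in each length bin. Short markers such as Tagln and Acta2 lie above 0 and Fn1 lies lowest in both panels.

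The genes whose levels followed each marker most closely over the 9 libraries differed between markers. Of 11317 genes at 5 CPM or more, the log2 CPM of Acta2 was most like those of Myl9, Tpm2 and Cnn2, all parts of the contractile apparatus (Pearson r = 0.993, 0.992 and 0.990). The same 3 genes came first for Tagln. Twist2 was most like Fhl2, Actg2 and Kdelr3 (r = 0.986, 0.979 and 0.974), and Twist1 like Nkain4, Efemp2 and Aamdc (r = 0.956, 0.947 and 0.944). Among the genes most like Dcn were Bgn and Rhoj (r = 0.988 and 0.985), and among those most like Lum were Rarb and the proteoglycan gene Aspn (r = 0.980 and 0.974). Pdgfrb was most like the collagen crosslinking enzyme gene Lox, Hmcn1 and Phldb2 (r = 0.992, 0.989 and 0.982), and Postn like Emilin1, the pericyte gene Rgs5 and Pgm5 (r = 0.995, 0.986 and 0.985).

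For Fn1 and Prrx1, the nearest genes had long exons. Those of Fn1 were Esyt2, Fbn1 and Nid1 (r = 0.996, 0.995 and 0.995), with 9143, 12128 and 6943 bases of exon. Those of Prrx1 were Ano3, Itpr2 and Nhlrc2 (r = 0.996, 0.994 and 0.987), with 7218, 14802 and 8718 bases. These r values describe the same 9 libraries, which share their depth and length trends, and carry no test.

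Markers of other cell types were set beside the 10 genes. The summed pan-neuronal level was 5582, 8464 and 13512 CPM in 129 1 to 129 3, where the summed markers were 19829, 22444 and 5103 CPM. It was 5509, 10504 and 14435 CPM in hybrid 1 to hybrid 3, and CAST 1 to CAST 3 had 16414, 10310 and 7294 CPM. Hybrid 1 and CAST 3 had the lowest pan-neuronal and the highest marker sum of their line, and 129 1 the lowest pan-neuronal and the second highest marker sum. Sums are carried by the most abundant genes, and the mean log2 CPM over each list gave another order in CAST and the hybrid. The pan-neuronal mean was 7.93, 7.84 and 8.98 in hybrid 1 to hybrid 3 and 8.50, 8.89 and 8.55 in CAST 1 to CAST 3. The marker mean was 8.62, 7.94 and 5.29 in the hybrid libraries and 5.33, 6.24 and 6.33 in those of CAST. By this measure CAST 1 was lowest of its line in both lists, and hybrid 2 was lowest in pan-neuronal genes and between the others in the markers. The motor neuron sum was 137, 293 and 478 CPM in 129 1 to 129 3, 176, 174 and 114 for the hybrid libraries and 349, 300.1 and 162 for those of CAST. EdgeR called 0 of 12 pan-neuronal and 0 of 10 motor neuron genes in each comparison (0, 0 and 0 and 2, 1 and 0 under an unadjusted p of 0.05; 0, 0 and 0 and 1, 1 and 0 by DESeq2). The part of these cells in the marker levels was not tested.

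**Figure D5:**
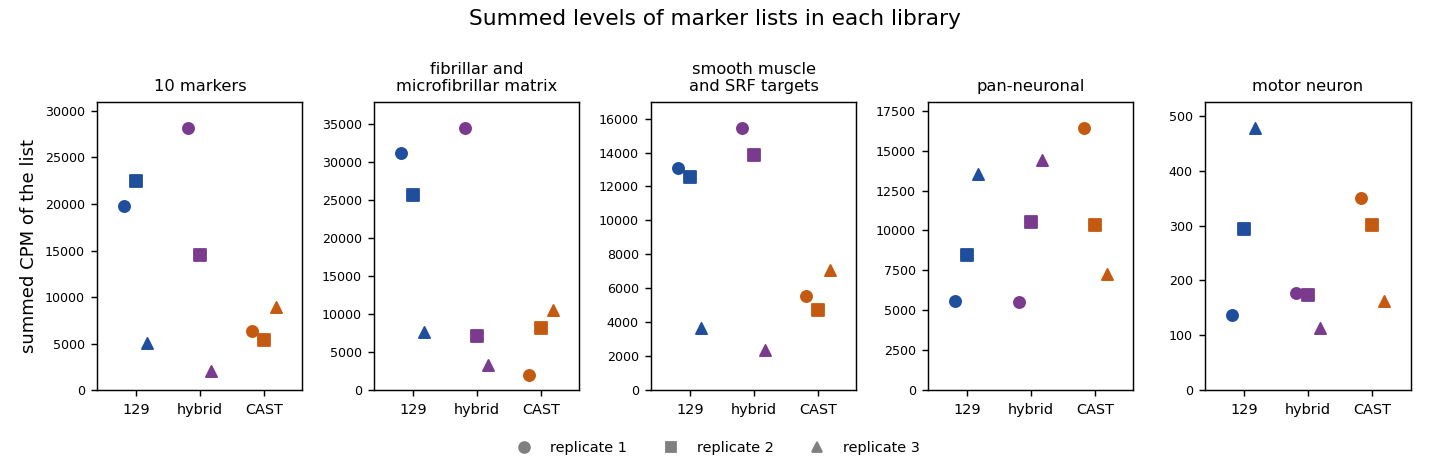
Summed CPM of the 10 markers and of 4 lists of genes in each library, by line, with marker shapes for replicates and axes from 0. Library 129 3 is low in the markers (5103) and high in pan-neuronal genes (13512), and hybrid 3 is lowest of all in the markers (2024).

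Pericyte genes, which share Pdgfrb with fibroblasts, summed to 255 to 480 CPM in 129, 215 to 465 in the hybrid and 195 to 591 in CAST, and edgeR called 0 of 8 (2, 1 and 4 under an unadjusted p of 0.05; 2, 1 and 4 by DESeq2). Without CAST 1 it called 1 of 8 in the hybrid against 129. The median log2 fold changes were −0.49, −0.24 and 1.46, with 3, 4 and 5 of 8 positive. Without hybrid 1 the last 2 medians were −1.16 and 0.71. Mcam, an adhesion molecule of vessel walls, stood at 168 ± 32.2 CPM in 129, 106 ± 50.6 CPM in hybrid and 189 ± 34.6 CPM in CAST libraries (SD, n = 3), and Notch3 at 126 ± 53.1, 71.7 ± 60.4 and 155 ± 146 CPM. In the hybrid against CAST, Mcam (−0.84) and Notch3 (−1.11) were negative, opposite to the list median. Neural crest and Schwann cell genes summed to 90.3 to 214 CPM over the 9 libraries, with Ngfr, a receptor that motor neurons also make, at a mean of 112 CPM. Their defining factor Sox10 did not pass the filter. EdgeR called 0 of 5 tested genes (none in any comparison by the unadjusted p or by DESeq2).

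Muscle genes summed to 11.9 to 72.5 CPM, far below the 10 markers in every library. Of 8 tested, Myh3, the embryonic myosin heavy chain, fell in the hybrid against 129 (log2 fold change −2.81 ± 0.52, SE, edgeR adjusted p = 0.0106; 0.0516 without hybrid 3) and no other gene of the list passed in any comparison (2, 2 and 1 under an unadjusted p of 0.05; 2, 1 and 1 by DESeq2). Without both CAST 1 and hybrid 2, edgeR called 3 of the 8 in the hybrid against 129. Myh3 stood at 18.4, 6.10 and 7.53 CPM in 129 1 to 129 3 and at 1.70, 1.68 and 1.19 CPM in hybrid 1 to hybrid 3. Endothelial genes summed to 15.4 to 51.1 CPM and cartilage genes to 22.6 to 573 CPM. Col2a1, the type II collagen of cartilage, stood at 197 ± 263 CPM in CAST, 48.4 ± 21.9 in 129 and 21.0 ± 15.3 in the hybrid (SD, n = 3). Its CAST mean rested on CAST 3, with 12.7, 79.8 and 498 CPM in CAST 1 to CAST 3. Of the 6 tested cartilage genes, 1 was positive in CAST against 129 (median −0.56), and 3 without CAST 1 (median −0.16). EdgeR called 0 of 5 endothelial, 0 of 6 cartilage and 0 of 6 neural progenitor genes (1, 1 and 0; 1, 1 and 1; and 1, 1 and 1 under an unadjusted p of 0.05; 0, 1 and 0; 0, 1 and 1; and 1, 1 and 1 by DESeq2).

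One gene of the list of fibroblast surface and cytoskeleton proteins passed the threshold. Of the 13 tested genes of this list, 4 were positive in the hybrid against 129 (median log2 fold change −1.12). In the hybrid against CAST 8 were positive (median 0.42), and in CAST against 129 4 were (median −0.58). Without both CAST 1 and hybrid 2 these medians were −0.66, 0.59 and −0.28. S100a4, a calcium-binding protein also called fibroblast-specific protein, had 0, 0 and 1 counts in 129 1 to 129 3 and 1, 3 and 0 counts in CAST 1 to CAST 3. It had 409, 757 and 228 counts in hybrid 1 to hybrid 3, or 28.9, 106 and 15.9 CPM. The hybrid libraries were thus all above the parental ones. The ratio of summed, scaled counts was 2028 against 129 (95% counting interval 363 to 80157, edgeR adjusted p = 0.00114) and 406 against CAST (158 to 1491, adjusted p = 0.00160). The intervals cover counting error only. The gene stayed past the threshold in both comparisons in all 16 alternatives. Hybrid 3, the library lowest in the sum of the 10 markers, still held 228 counts of S100a4. Of its exonic bases, 51.7% overlap the predicted gene Gm42674 on the same strand, so the gene of origin of these reads is uncertain. The other 12 tested genes of this list were not called (5 in the hybrid against 129 and 2 in the hybrid against CAST were under an unadjusted p of 0.05, S100a4 included; DESeq2 called 2 in each), and in CAST against 129 edgeR called 0 of 13 (4 at an unadjusted p under 0.05, 2 by DESeq2).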

How the data were processed

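The deposited matrix holds raw counts, whole numbers of reads per Ensembl gene, for 9 libraries; the authors aligned reads with STAR to mm10, per the submitters' processing notes. How genes were counted, with which annotation and strand setting, is not given in the sources used here. Of the 11 samples in the labels, CAST samples 7 and 8 were not analysed here. Symbols, positions and summed exon lengths came from GENCODE M21 (GRCm38, the assembly also called mm10), joined by Ensembl ID.

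Genes were kept by filterByExpr (minimum count 10, minimum total 15, minimum proportion 0.7), normalized with TMM and tested by robust quasi-likelihood F tests (edgeR 4.0.16, R 4.3.3), all 3 lines in 1 fit with no covariate. The fit was tested on simulated data with the same dispersion for every gene. That check does not cover the spread of these markers. Tests were two-sided. DESeq2 1.42.0 and limma-voom (limma 3.58.1) were alternatives, beside RLE scaling, no filter, a replicate block, an exon length offset and left-out libraries. List medians, Id3 and Bgn without 1 or 2 libraries were added after seeing the data. SE is from the F statistic, and log2 CPM used a prior count of 2. The 10 genes, the 17 lists (199 genes, 194 analysed, 176 tested) and the tests were chosen with earlier results of these data known. Named list genes were those past the threshold (up to 3 per direction, mean of at least 5 CPM) or else the 2 with the highest mean CPM; the 3 genes most like each marker were named by Pearson r, except where a gene is not reported here.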

Additional observations from a re-analysis of the deposited data

How the results depend on the processing

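No marker changed side of the threshold under RLE scaling, no filter on low counts, limma-voom or the exon length offset. DESeq2 called 3 markers in CAST against 129, in the hybrid against CAST and in the joint test. The cause of this difference between tools was not tested. Leaving out 1 library at a time gave 0 markers in CAST against 129, the hybrid against 129 and the joint test, and 0 to 3 in the hybrid against CAST (3 without hybrid 3). Over all genes, DESeq2 called 939, 2100, 1597 and 2506 (CAST against 129, hybrid against 129, hybrid against CAST, joint), beside 136, 1041, 891 and 1192. In CAST against 129, limma-voom called 263 genes, the length offset 262 and the fit without both CAST 1 and hybrid 2 called 230. Leave-one-out counts ran from 26 (without 129 2) to 157, 522 (without 129 2) to 1717 (without CAST 1), 643 to 923 and 788 (without 129 2) to 1485.

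The log2 value in CAST against 129 turned negative for Twist1 (−0.37), Acta2 (−0.38) and Tagln (−0.48) with the length offset, and was −0.12, −0.57 and −0.66 without both CAST 1 and hybrid 2, where Acta2 in the hybrid against 129 was −0.14. Leaving out 1 library, signs also turned in CAST against 129 for Twist1 (−0.24 to 0.50), Twist2 (−0.98 to 0.11), Acta2 (−0.56 to 0.35) and Tagln (−0.66 to 0.35). The same held in the hybrid against 129 for Postn (−1.91 to 0.019) and Acta2 (−0.13 to 1.17), and in the hybrid against CAST for Prrx1 (−1.87 to 0.49), Pdgfrb (−0.76 to 1.67), Fn1 (−2.25 to 2.06) and Acta2 (−0.13 to 1.18). The cause was not tested.

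The labels do not say whether replicate numbers pair libraries across lines. Of same-number pairs, 2 of 9 correlated over 0.1 (range −0.72 to 0.49). Trends of single libraries, such as those of CAST 1 and hybrid 2, enter these correlations, so they cannot decide pairing. With a replicate block, 6, 561, 526 and 651 genes passed, no marker changed its call, and Fn1 in the hybrid against CAST was −0.36.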
